A study of Mus musculus with 2 samples.

Results

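The I-kappa-B family comprised 6 genes here, found by gene symbol among the 55536 annotated genes measured. Nfkbia, Nfkbib and Nfkbie encode the classical inhibitors I-kappa-B alpha, beta and epsilon, and Nfkbiz, Nfkbid and Bcl3 encode the nuclear proteins I-kappa-B zeta, I-kappa-B NS and BCL3. Their mRNAs were measured by total RNA sequencing of cytosolic RNA, after ribosomal RNA had been depleted, in macrophages grown from C57BL/6J mouse bone marrow. The cells had received lipid A, the lipopolysaccharide part that Toll-like receptors sense, at 100 ng/ml for 75 minutes. There was 1 group of 2 libraries, replicates 1 and 2, each from 1 µg of RNA and both carrying the same donor identifier. Nothing in the labels ties them to different animals or dishes beyond calling them biological replicates, so the SDs (n = 2) may be partly technical. The labels give neither sex nor age of the donor. No unstimulated cells were analysed here, so the levels show what was present after lipid A and not what lipid A changed.

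The classical members bind dimers of NF-kB, the inflammatory transcription factor, and hold them out of the nucleus. After Toll-like receptor signalling the I-kappa-B kinases phosphorylate a pair of serines in them, a ubiquitin ligase recognises the phosphorylated motif, and the protein is destroyed. Freed NF-kB then induces Nfkbia, whose protein closes a negative feedback loop. The nuclear members are not removed in this way: they bind NF-kB on DNA, and raise or lower the transcription of particular target genes.

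The stretch that encodes the phosphorylated motif sets the classes apart and is shown for that reason, from the GENCODE M21 transcript with most counts, each 36 bases long. Capitals mark the codons of the serines that the kinases phosphorylate.
Nfkbia: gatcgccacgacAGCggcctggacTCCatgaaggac
Nfkbib: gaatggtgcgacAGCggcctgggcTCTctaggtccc
Nfkbie: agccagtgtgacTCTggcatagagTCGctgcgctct
The motif searched was aspartate, serine, glycine, any pair of residues and serine. It occurred 1 time in each of these 3 coding sequences and 0 times in those of Nfkbiz, Nfkbid and Bcl3.

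All 6 genes reached a mean of 1 TPM (a relative transcript abundance corrected for length and depth), against 39.3% of 22028 protein-coding genes. Nfkbia (ENSMUSG00000021025.8, chr12:55489410-55492647, minus strand, all positions in mm10) was the most abundant, with a level of 550.4 TPM in replicate 1 and 570.9 TPM in replicate 2 (560.6 ± 14.5, SD, n = 2), and ranked 44 among protein-coding genes. Nfkbiz (ENSMUSG00000035356.17, chr16:55811375-55838899, minus strand) followed at 258 and 222 TPM (240.0 ± 25.2), rank 127. The other 4 genes lay between 18.3 and 48.04 TPM in single libraries. In bulk RNA, fewer cells that express a gene and less RNA per cell cannot be told apart.

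Among the classical inhibitors, Nfkbib (ENSMUSG00000030595.15, chr7:28758251-28767512, minus strand) had 47.2 TPM in replicate 1 and 48.04 TPM in replicate 2 (47.6 ± 0.566). That was the smallest spread of the family in the first quantification, while in the second Bcl3 had it (9.09 and 9.06 TPM). The product of Nfkbib, like I-kappa-B alpha, retains NF-kB dimers in the cytoplasm, and so does that of Nfkbie. Nfkbie (ENSMUSG00000023947.8, chr17:45555703-45563169, plus strand) had 35.3 and 39.3 TPM (37.3 ± 2.83). Nfkbia therefore stood 11.7-fold above Nfkbib in replicate 1 and 11.9-fold in replicate 2, and 15.6-fold and 14.5-fold above Nfkbie. It held 87.0% of the classical members' summed TPM in replicate 1 and 86.7% in replicate 2. Summed over the 3 classical genes, the level was 633 TPM in the first library and 658 TPM in the other. The second quantification turned that direction, with 321 TPM in replicate 1 and 257 TPM in replicate 2.

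Among the nuclear proteins, Nfkbiz, whose product is needed in mouse macrophages for secondary response genes such as Il6, predominated. Nfkbid (ENSMUSG00000036931.15, chr7:30421732-30428746, plus strand), whose product restrains Il6 in mouse macrophages, had 22.5 TPM in replicate 1 and 27.7 TPM in replicate 2 (25.1 ± 3.71). Bcl3 (ENSMUSG00000053175.17, chr7:19808462-19822770, minus strand), whose product binds homodimers of the NF-kB subunits encoded by Nfkb1 and Nfkb2, had 18.3 and 21.5 TPM (19.9 ± 2.26). Nfkbiz exceeded Nfkbid 11.5-fold in replicate 1 and 8.02-fold in replicate 2, and Bcl3 14.1-fold and 10.3-fold. Its share of the nuclear members' summed TPM was 86.3% and 81.9%. Nfkbia and Nfkbiz together held 86.8% of the TPM of the 6 genes in replicate 1 and 85.3% in replicate 2.

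In descending order the genes were Nfkbia, Nfkbiz, Nfkbib, Nfkbie, Nfkbid and Bcl3, as the plot of levels by library shows. The libraries' values did not overlap between any neighbours in this order. In the first quantification the closest were Nfkbid and Bcl3, with 22.5 TPM as the lowest Nfkbid value and 21.5 TPM as the highest Bcl3 value. A second deposited quantification, made directly from reads, gave the same order without overlap but lower values, 281 and 224 TPM for Nfkbia and 129 and 86.0 TPM for Nfkbiz. Its closest neighbours were Nfkbib, with 18.4 TPM as the lowest value, and Nfkbie, with 17.2 TPM as the highest. The cause of the lower values was not tested. The ratio of Nfkbia to Nfkbiz was 2.13 in replicate 1 and 2.57 in replicate 2 in the first, and 2.18 and 2.60 in the second.

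**Figure D1:**
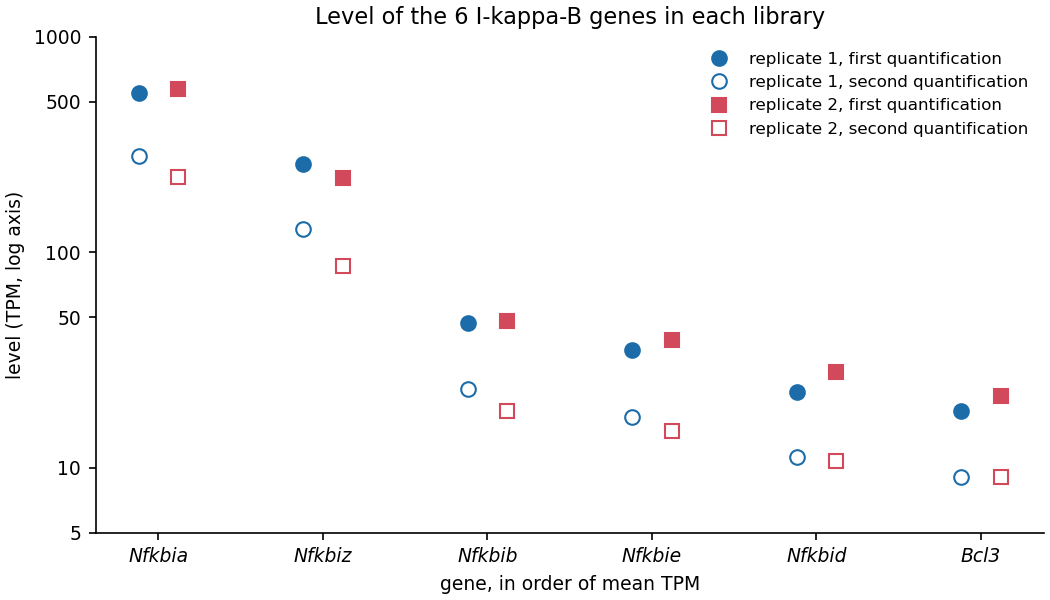
Level in TPM (log axis) of each of the 6 genes; circles are replicate 1, squares replicate 2, filled symbols the first quantification and open symbols the second. Nfkbia (550.4 and 570.9 TPM) and Nfkbiz (258 and 222 TPM) lie above the other 4 genes in both quantifications.

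The depth behind these levels was high. Nfkbiz had 102411 expected counts in replicate 1 and 74069 in replicate 2, Nfkbia 86605 and 75527, and Bcl3, the lowest, 2898 and 3031. Nfkbiz had more counts than Nfkbia in replicate 1 but a lower TPM in both libraries, since its effective length there was 3419 bases against 1354 for Nfkbia. The deposited posterior SD of the gene count was 0 for 5 genes and at most 0.290 counts for Nfkbib, so hardly any fragment was divided between these and other genes. Nfkbib overlaps Sirt2 (6252 and 4895 counts) on the opposite strand over 778 bases, from 28766735 to 28767512 on chromosome 7. Of the Nfkbib transcripts, only Nfkbib-203, at 0 counts, reaches that far. Opposite strand genes at Bcl3 had at most 7 counts per library.

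To show how far the libraries differed, counts were scaled by TMM, which assumes that most genes are alike in both. None of the 6 genes lay past 1.5-fold, against 4.85% of 10091 genes whose counts averaged at least 100. Nfkbia had 80951 scaled counts in replicate 1 and 80802 in replicate 2, a ratio of 1.002 (95% counting interval 0.992 to 1.01). For Nfkbib the ratio of replicate 1 to replicate 2 was 1.01 (0.974 to 1.05), so at this scaling neither gene differed beyond counting error. With total counts the Nfkbia ratio was 1.03, and in the second quantification Nfkbia had 1.07 and Nfkbib 1.06, so for differences this small the call depends on the scaling. Nfkbiz was higher in replicate 1, with 95725 against 79242 scaled counts and a ratio of 1.21 (1.197 to 1.22). Nfkbie (0.926, 0.899 to 0.954), Nfkbid (0.843, 0.810 to 0.878) and Bcl3 (0.835, 0.794 to 0.879) were lower in replicate 1. These 4 differences exceed counting error at this scaling. As ratios of scaled counts they kept their direction under all 5 other settings, with Nfkbie closest to 1 (0.971) in the second quantification. In TPM of the second quantification Nfkbiz stayed higher in replicate 1 (129 and 86.0 TPM). Nfkbie (17.2 and 14.9 TPM), Nfkbid (11.2 and 10.8) and Bcl3 (9.09 and 9.06) were there higher in replicate 1 too, against their scaled counts. The median size of the log2 ratio was 0.18 over the 6 genes and 0.15 over the 10091 genes. The 10091 genes include genes with fewer counts than any of the 6, so these medians are not matched for depth. With 1 library a side there is no test of the differences.

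**Figure D2:**
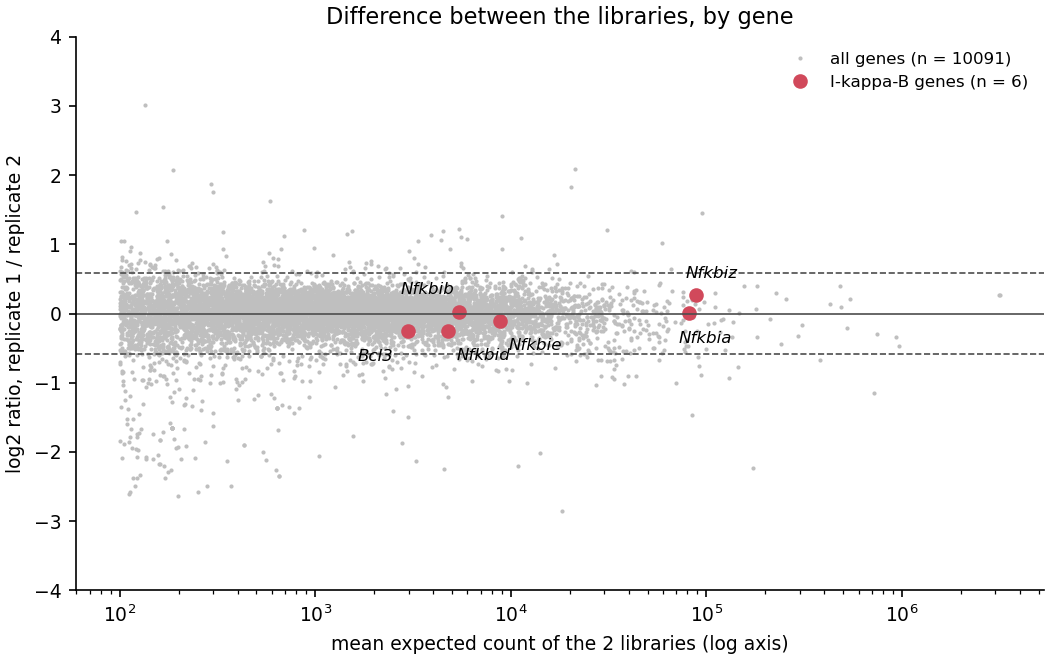
Log2 ratio of replicate 1 to replicate 2 in TMM-scaled counts, against the mean expected count (log axis), for 10091 genes averaging at least 100 counts; dashed lines mark 1.5-fold and 1 gene lies outside the plotted range. The 6 I-kappa-B genes, in red, all lie between the dashed lines, Nfkbiz highest (ratio 1.21) and Bcl3 lowest (0.835).

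Each gene had 1 dominant transcript. Nfkbia-201 took 99.9% ± 0.0568 of the expected count of its gene (SD, n = 2), Nfkbid-203 96.7% ± 0.232, the main Bcl3 transcript 92.3% ± 2.33, Nfkbie-201 91.8% ± 2.61, Nfkbib-202 91.3% ± 1.28 and Nfkbiz-204 83.4% ± 2.69. Names ending in 3 digits are those of annotated GENCODE M21 transcripts. Shares are estimates, because fragments from exons common to several transcripts are divided by a model.

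By share of counts Nfkbiz had the most even division, and it followed the first exon. By share of TPM the main Bcl3 transcript led its gene least, with a mean of 79.5% against 83.6% for Nfkbiz-204. Nfkbiz-204 begins at base 55822138 of chromosome 16 (mm10, minus strand), while Nfkbiz-203 begins upstream at 55838899. All 4 transcripts of the upstream start together held 18.5% of the Nfkbiz count in replicate 1 and 14.7% in replicate 2, and Nfkbiz-203 alone 18.1% and 14.2%. Nfkbiz-204 held 81.5% and 85.3%. The second quantification gave 19.7% and 15.9% for the upstream start, and in both quantifications its share was higher in replicate 1. The transcripts share 3256 bases, and 371 lie in Nfkbiz-204 and 511 in Nfkbiz-203 alone when these are compared. Against all annotated transcripts of the gene, Nfkbiz-204 has 23 bases of its own and Nfkbiz-203 has 0, so their shares rest on the model. In replicate 1 the posterior SD was 316 counts for Nfkbiz-204 and 321 counts for Nfkbiz-203. Their annotated coding lengths are 2184 bases for Nfkbiz-204 and 1887 bases for Nfkbiz-203, whose start codon lies further downstream at 55819695. The shorter coding sequence was therefore the minor one in the cytosolic RNA. Nfkbiz-201, which has the upstream start and the longer coding sequence, had 0 expected counts in both libraries, with a posterior SD of 46.01 counts in replicate 1, so a small amount would not be seen.

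Nfkbid has 3 annotated starts for protein-coding transcripts, at 30421732, 30422406 and 30423275 of chromosome 7. The first of them, used by Nfkbid-203, accounted for 96.5% of the Nfkbid count in the library of replicate 1 and 96.8% in that of replicate 2. The second (Nfkbid-202) took 0.342% and 0, and the third (Nfkbid-201) 3.17% and 3.14%. In the second quantification the same starts took 90.3% and 84.5%, 5.64% and 8.95%, and 4.06% and 6.47%. Few bases set the transcripts apart, 104 in Nfkbid-203 and 90 in Nfkbid-202 when these are compared, so the minor shares are uncertain, while the first start dominated in both. Nfkbid-203 has an annotated coding length of 1410 bases that does not begin with ATG, and the transcripts from the other starts have 981 bases.

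For Nfkbib the transcripts with different starts, Nfkbib-202 and Nfkbib-201, carry the same coding length of 1077 bases. In replicate 1 Nfkbib-201 accounted for 7.80% of the Nfkbib count, and in replicate 2 for 9.62%. A short Bcl3 transcript of 755 bases, all within the exons of the main one, held 9.01% and 5.57% in the first quantification but 3.13% and 1.75% in the second. As a share of the gene's TPM in the first quantification, which corrects for the short length, it held 23.0% and 15.01%, and the main transcript 75.9% and 83.1%. It has no base that the main one lacks, so its share is uncertain and depends on how it is measured. Nfkbie-203, which differs from Nfkbie-201 by lacking 79 bases, held 3.59% and 3.78%.

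**Figure D3:**
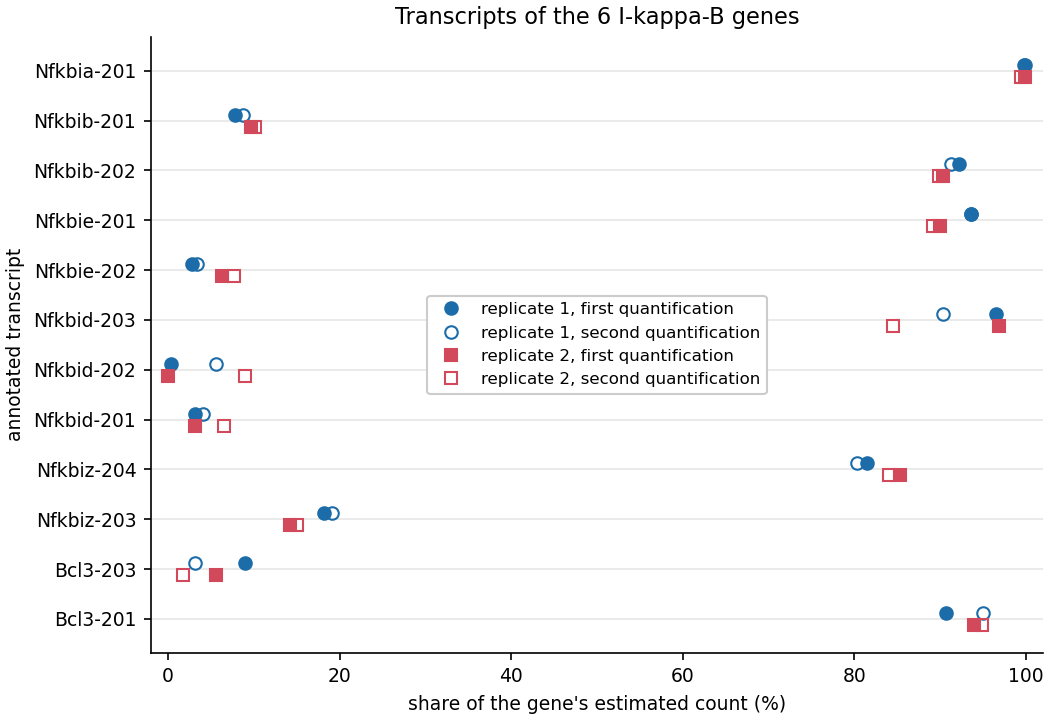
Share of the gene's estimated count, in percent, of each transcript with a mean share of 5% or more in either quantification; circles are replicate 1, squares replicate 2, filled symbols the first quantification and open symbols the second. Nfkbiz shows a second transcript at 14.2% to 19.1%, and the quantifications differ most for the Nfkbid transcripts.

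Upstream sequence is shown for Nfkbia, the most abundant gene, and for the first and second Nfkbid starts, the main one and a minor one. Each run is the 250 bases before the RefSeq start, from 5′ to 3′ on the gene's strand (RefSeq, GRCm38.p6, the sequence of mm10). Capitals mark GGNNNTTCC, a short form of the NF-kB binding motif, on either strand, a motif chosen after the windows had been read. On the other strand it reads GGAANNNCC.
Nfkbia, chr12:55492648-55492897, minus strand: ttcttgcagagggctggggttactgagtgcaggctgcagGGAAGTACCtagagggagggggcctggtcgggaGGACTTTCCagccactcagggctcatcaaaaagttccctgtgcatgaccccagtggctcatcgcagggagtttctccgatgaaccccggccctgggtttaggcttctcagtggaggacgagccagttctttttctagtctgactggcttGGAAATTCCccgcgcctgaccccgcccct
Nfkbid first start, chr7:30421481-30421730, plus strand: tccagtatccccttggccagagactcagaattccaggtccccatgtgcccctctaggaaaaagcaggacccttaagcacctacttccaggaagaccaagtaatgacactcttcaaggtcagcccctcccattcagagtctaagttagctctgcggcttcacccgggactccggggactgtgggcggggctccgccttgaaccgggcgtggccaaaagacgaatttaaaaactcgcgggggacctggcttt
Nfkbid second start, chr7:30422156-30422405, plus strand: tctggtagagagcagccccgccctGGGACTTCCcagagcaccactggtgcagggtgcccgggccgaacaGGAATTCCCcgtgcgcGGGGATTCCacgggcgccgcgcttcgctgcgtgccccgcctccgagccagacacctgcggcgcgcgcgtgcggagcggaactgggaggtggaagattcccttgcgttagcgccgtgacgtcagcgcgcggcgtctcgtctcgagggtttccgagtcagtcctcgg
The Nfkbia window held 3 matches, beginning 211, 178 and 29 bases before the start. The windows of the Nfkbid starts held 0 for the first, which carried most counts, and 3 for the second. Of 32851 such windows, 15.7% held at least 1 match. Nfkbie held 2, Bcl3 and the third Nfkbid start 1 each and Nfkbib 0. The Nfkbib window was that of a start at base 28766644, beside the minor Nfkbib-201 (28766640). No window was taken at the start of the main Nfkbib-202 (28766514). The longer kB consensus occurred in 3.90% of windows, 1 time each in those of Nfkbia and Nfkbie and 2 times before the second Nfkbid start. The second window lies within the first intron of Nfkbid-203. A match describes letters only, and binding was not measured.

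Transcripts annotated with a retained intron held a smaller share of each gene's count than the main transcript and, for Nfkbie and Nfkbia, larger shares in replicate 2. Such transcripts exist for 4 of the 6 genes. Nfkbie-202 held 252 counts in replicate 1 and 539 in replicate 2, which is 2.77% of the Nfkbie count (95% Clopper-Pearson interval 2.44 to 3.13) and 6.28% (5.77 to 6.81). Nfkbia-202 held 65.03 and 117 counts, 0.0751% (0.0579 to 0.0957) and 0.155% (0.128 to 0.186) of the Nfkbia count. In the second quantification Nfkbie-202 held 3.41% and 7.68% and Nfkbia-202 0.166% and 0.596%, each above the interval of the same library. The Bcl3 ones held 9.17 and 12.2 counts, 0.316% and 0.403%, with overlapping intervals (0.142 to 0.589 and 0.205 to 0.691), and 0.734% and 1.33% in the second quantification. For Nfkbid there were 0 counts in replicate 1, which allows a share of up to 0.0641%, and 2.24 counts in replicate 2.

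Over 6090 protein-coding genes with such transcripts and a mean of at least 100 counts, the median share was 0.420% in replicate 1 and 1.09% in replicate 2. Nfkbie lay above it, at percentile 81.6 by mean share, and Nfkbia below it, at percentile 20.2. The counting intervals of the libraries did not overlap for Nfkbie and Nfkbia. They leave out how uncertainly fragments were divided between transcripts. In replicates 1 and 2 the posterior SD was 14.4 and 19.7 counts for Nfkbia-202, and 22.7 and 33.4 counts for Nfkbie-202. For Nfkbia the separation is therefore uncertain. Among 2402 protein-coding genes with a mean of 20 or more retained-intron counts and 100 or more in all, 81.1% had the higher share in replicate 2, so the direction in the I-kappa-B genes is that of most genes. The share in replicate 1 was 0.442 times that in replicate 2 for Nfkbie and 0.483 times for Nfkbia, and the median over the 2402 genes was 0.554. In the second quantification the values were 0.443 for Nfkbie and 0.278 for Nfkbia, with a median of 0.490. RNAs known to stay in the nucleus moved the same way. Malat1 had 158 TPM in replicate 1 and 799 TPM in replicate 2, and Neat1 14.8 and 64.6 TPM. Their part in the retained-intron shares was not tested.

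Nfkbie-202 keeps intron 2 of the 5 introns of Nfkbie-201, a stretch of 610 bases at chr17:45558598-45559207 (mm10, plus strand). The 30 bases around each of its ends show the splice sites that this transcript leaves unused, with the first and last pair of intron bases in capitals.
Nfkbie intron start: aacaacctttaccagGTgagtagagagaga
Nfkbie intron end: cctctatgcctacAGacagcactgcatctg
Nfkbia-202, by contrast, keeps no whole intron of Nfkbia-201. It has only 32 bases outside the exons of Nfkbia-201, so its count rests on little sequence.

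**Figure D4:**
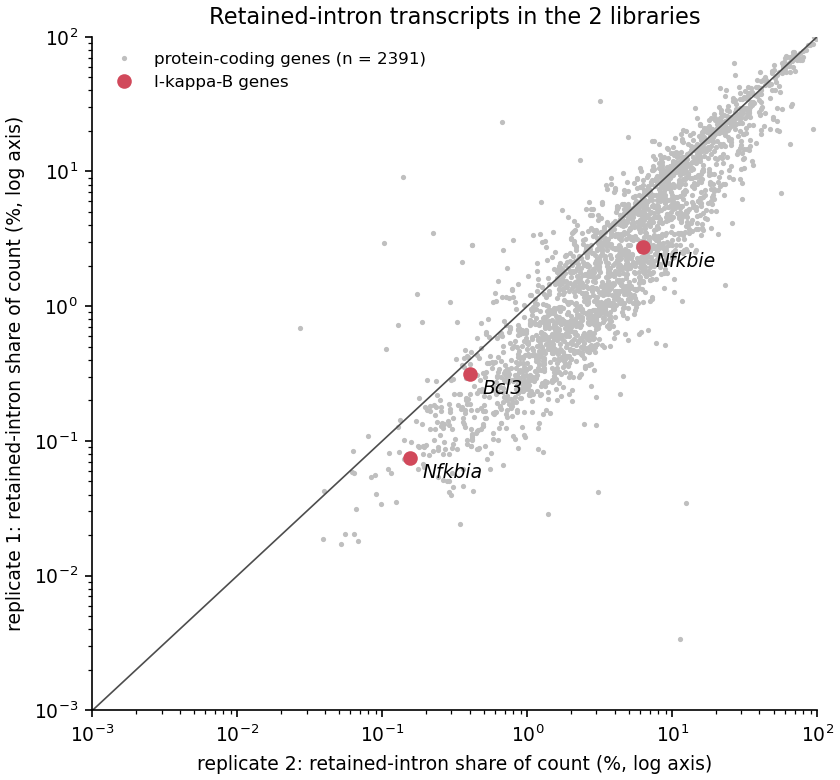
Share of a gene's expected count in retained-intron transcripts, in percent on log axes, in replicate 1 (vertical) and replicate 2 (horizontal), for 2391 protein-coding genes with a share above 0 in both (grey) and for Nfkbie, Bcl3 and Nfkbia (red); Bcl3 is below the count minimum of the grey genes. The red points lie below the line of equality, as most grey points do.

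Genes whose levels were most like those of a family member were the 2 protein-coding genes with the smallest distance in log2(TPM + 0.1) over the 2 libraries. Nfkbie lay closest to Nfkb2 (35.4 and 39.7 TPM, distance 0.0168), an NF-kB subunit gene, and then to Dnase1l1. Nfkbia lay closest to Rplp1 (585 and 538 TPM, distance 0.123) and the lipid A co-receptor gene Cd14 (505 and 559 TPM, distance 0.129). Nfkbiz was nearest to Rplp2 and Rps2, Nfkbib to Caprin1 and Rtn3, Nfkbid to Ubr4 and Hsd17b12, and Bcl3 to Aph1c and Ddrgk1. With 2 libraries this likeness is one of level and says little else.

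The partners of these proteins were lower than Nfkbia and Nfkbiz, as the plot of pathway genes shows. All 5 subunit genes of NF-kB were present, with Rel at 42.2 ± 6.70 TPM, Nfkb1 at 38.8 ± 5.96, Nfkb2 at 37.5 ± 3.05, Rela at 31.8 ± 0.368 and Relb at 19.5 ± 2.50. The classical inhibitors summed to 3.81 times the TPM of the subunits in replicate 1 and 3.79 times in replicate 2. These are mRNA levels, and protein was not measured. None of the subunit genes lay past 1.5-fold between the libraries.

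All 8 genes of the I-kappa-B kinases and of the ubiquitin ligase that marks the classical members reached 1 TPM, with a median of 12.2 TPM. The kinase subunit genes Ikbkb and Chuk had 13.7 ± 0.502 and 7.75 ± 0.240 TPM, and the scaffold gene Ikbkg 4.76 ± 0.728. Of the paralogous substrate receptors of the ligase, Fbxw11 (19.5 ± 0.141 TPM) lay above Btrc (1.83 ± 0.0707 TPM). The 4 other related genes were low, with a median of 4.83 TPM. They included Nkiras2 (7.82 ± 0.573 TPM) and Nkiras1 (1.63 ± 0.184 TPM), whose products bind I-kappa-B proteins, and Nfkbil1 (1.84 ± 0.297 TPM), which encodes a more distant relative.

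Among 8 known regulators of the family, all at 1 TPM or more with a median of 9.27 TPM, Zc3h12a was highest at 29.3 ± 1.202 TPM. It encodes Regnase-1, an endonuclease that degrades inflammatory mRNAs including that of Nfkbiz. The Roquin genes Rc3h1 and Rc3h2, which act on overlapping mRNA targets, had 7.99 ± 0.346 and 7.46 ± 0.325 TPM. Arid5a, whose product protects some of these mRNAs, had 8.78 TPM in replicate 1 and 4.62 TPM in replicate 2, a scaled ratio of 1.67. It was the only gene of the 25 listed partners and regulators past 1.5-fold, against 4.85% of 10091 genes. Cyld, whose product removes ubiquitin chains from BCL3, had 5.64 ± 0.0212 TPM.

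**Figure D5:**
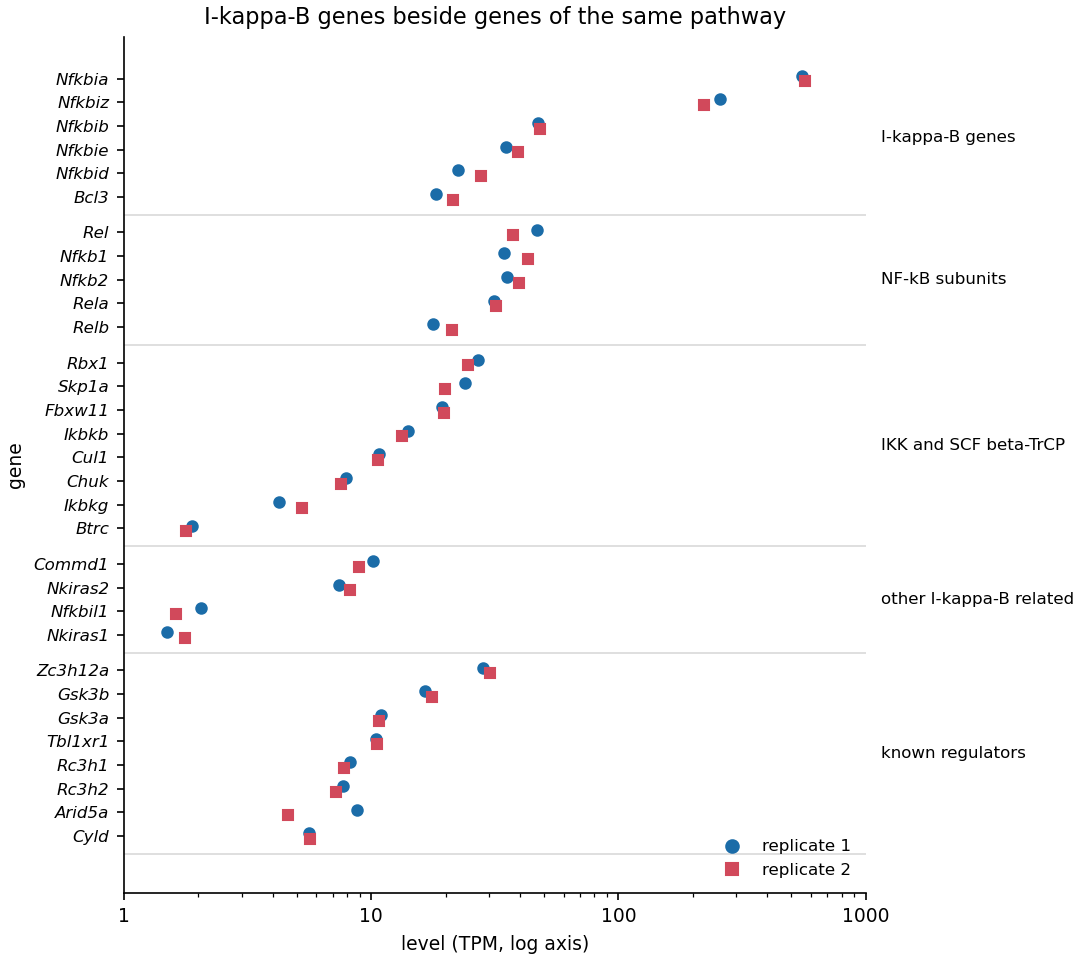
Level in TPM (log axis) of the 6 I-kappa-B genes and of 25 genes of the same pathway, grouped by role; circles are replicate 1 and squares replicate 2. Nfkbia and Nfkbiz lie to the right of all the other genes, and Arid5a shows the widest gap between the libraries among the 25.

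The cells' label was checked against markers. All 8 macrophage markers averaged 16.7 TPM or more, while 0 of 4 T and NK cell, 0 of 4 B cell and 0 of 4 fibroblast markers and 1 of 4 neutrophil markers (S100a8, 9.74 ± 0.686 TPM) reached 1 TPM. Macrophage markers summed to 5122 TPM in replicate 1 and 5265 TPM in replicate 2, most of it Lyz2 (4227 and 4111 TPM), and neutrophil markers to 10.4 and 9.61 TPM. The T and NK cell, B cell and fibroblast lists each summed to at most 0.10 TPM in a library, and Cd3g, Col3a1 and the neutrophil marker Ly6g were at 0 in both. In scaled counts 7 of the 8 macrophage markers were lower in replicate 1, with a median log2 ratio of -0.32. The share of all genes lower in replicate 1 was not computed. Itgam (ratio 0.650) was the only marker of the 8 past 1.5-fold, against 4.85% of 10091 genes. Csf1r, the receptor gene of the macrophage growth factor, had a ratio of 0.721 and Adgre1 0.708. Their part in the ratios of the I-kappa-B genes was not tested. Library totals over genes were 55596625 and 50157146 expected counts. Amplified fragments can copy 1 molecule, so the intervals and the limit from 0 counts describe counting error alone.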

How the data were processed

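Per the deposited readme files, 2 quantifications were made of each library on build mm10 with annotation M21. The first used alignments to the transcriptome and gave gene and transcript tables. The second used the reads themselves and gave transcripts alone. Quantifiers, versions and strand setting: not given in the sources used here. Expected counts are the authors' estimates of fragments, not normalized, and TPM were deposited scaled to the same sum over each table. The posterior SD of each count, a score of how uncertainly fragments were divided, was deposited too.

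Genes were found by symbol and joined by versioned identifier. Counts were rounded, scaled by TMM over genes averaging at least 10 counts (edgeR 4.0.16, R 4.3.3) and compared as ratios with 0.5 added. DESeq2 1.42.0 gave alternative size factors. Intervals are 95% Clopper-Pearson. Transcripts beginning within 100 bases of each other were joined by start. Other steps used Python 3.11.15, pandas 2.3.3, numpy 2.4.6 and scipy 1.17.1. The calculation of ratios was checked on simulated counts with counting error alone, so that check does not cover variation between replicates. Where a symbol named several genes, that of highest TPM was used.

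With 1 group no test exists and no p-value was computed. Promoter entries matched for 5 of the 6 genes, all except Nfkbiz. Named are the 6 genes, the listed partners, regulators and markers, the 2 nearest genes in level and transcripts with a mean share of 5% or more in either quantification; other transcripts, Malat1, Neat1, Sirt2 and the motifs were chosen after their values were seen. Members and lists were chosen with earlier results of these data known.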

Additional observations from a re-analysis of the deposited data

How the results depend on the processing

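All 6 genes stayed at 1 TPM or more under each alternative tried for that count, where 39.3% of protein-coding genes did in the main run. With a fold of 2, a lower count minimum, DESeq2 size factors or the second quantification, 0 lay past the fold between the libraries. In the main run 4.85% of 10091 genes lay past 1.5-fold, so 0 of 6 genes says little. The shares over all genes were not recomputed for the alternatives. The median level of the 6 genes, 42.5 TPM, was 18.4 TPM in the second quantification and 195 TPM when rescaled to protein-coding genes of the nuclear genome, and 41.3 to 43.7 TPM with 1 library left out. The median ratio of replicate 1 to replicate 2, 0.963, was 0.994 with total counts and 1.01 in the second quantification. The median share of the leading transcript, 92.1%, was 91.0% in the second quantification and 93.7% as a share of TPM, and 92.2% to 92.9% with 1 library left out. The median retained-intron share of the 4 genes that have such transcripts, 0.238%, was 0.707% in the second quantification, and 0.196% to 0.279% with 1 library left out. The Nfkbia ratio, 1.002, was 0.998 with DESeq2 size factors. The cause of these shifts was not tested. The gene levels rest on at least 2898 expected counts per library, though depth was not varied. Shares of transcripts with few bases of their own remain uncertain. No paired analysis was possible because there is only 1 group.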
